A study of Saccharomyces cerevisiae with 2 samples.

Results

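The yeast cell wall is built mainly from glucan, with a small amount of chitin, and 9 genes of its synthesis and remodelling were followed here in an ethanol strain and its mutant. They were taken by name from the deposited gene tables (FKS1, KRE1, KRE6, CHS1, CHS2, CHS3, GAS1, GAS3 and GAS5), and all 9 were found among the 5659 genes with reads. Their systematic names are YLR342W for FKS1, YNL322C for KRE1 and YPR159W for KRE6. Those of CHS1, CHS2 and CHS3 are YNL192W, YBR038W and YBR023C, and those of GAS1, GAS3 and GAS5 are YMR307W, YMR215W and YOL030W. ZGR3 is a mutant of ZTW1, and ZTW1 is a wild type strain of Saccharomyces cerevisiae used for bioethanol. What the mutation is, and the ploidy of the strains, are not given in the labels. Poly(A) RNA of each strain was sequenced in 1 library, from cells grown in 25 mL of YPD with 20 g/L glucose, started at an optical density (OD600) of 0.05 and harvested on entry into early stationary phase.

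The ZGR3 library held 4.61 M reads assigned to genes and the ZTW1 library 4.66 M, with a median of 183 and 188 reads per gene. Levels are RPKM, reads per kilobase of coding length and per M assigned reads. With 1 library per strain there is no replicate spread and no test, so each ratio compares these libraries and not the strains. Ratios of reads per total reads carry exact 95% Clopper-Pearson counting intervals, which cover the counting of reads and no spread between cultures. The reads have no molecular identifiers, so reads copied from 1 molecule could not be told apart.

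Glucan chains with β-1,3 links are made at the plasma membrane by a synthase whose catalytic subunit is Fks1 or its relative Gsc2, under the control of the GTPase Rho1. Proteins of the Kre group help to make the β-1,6-linked glucan that ties mannoproteins to the wall, and enzymes of the Gas family cut and rejoin β-1,3-glucan chains outside the cell. Chitin is made by Chs2 in the primary septum that divides mother from daughter, by Chs3 at the bud neck and in the side wall, and by Chs1, which repairs the septum during cell separation.

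The chitin synthase gene CHS2 differed most between the libraries and was 1.87-fold lower in ZGR3, with a counting interval of 1.56 to 2.26. GAS5 was 1.24-fold lower and KRE1 1.18-fold lower. KRE6 was 1.20-fold higher and CHS3 1.18-fold higher. The intervals of FKS1, CHS1, GAS1 and GAS3 included equality. That of FKS1 was narrow, at 0.943 to 1.05, and that of GAS3 was wider, at 0.750 to 1.12. With trimmed mean of M values scaling the ratio of GAS1 was 1.07 and its interval, 1.01 to 1.13, lay just above equality.

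By a rule of size, none of the 9 genes was at least 2-fold higher or lower in ZGR3 on the log2(RPKM + 1) scale, on which 0.542% of the 5532 genes averaging 1 RPKM or more were that much higher and 1.92% that much lower. At 1.5-fold, CHS2 was the 1 gene that was lower and none was higher, against 7.39% of all genes lower and 3.63% higher. Counting intervals lay above equality for 2 of the 9 and below it for 3, where 17.9% and 19.8% of all genes did so. Among the 2731 genes with at least as many reads as GAS3, the shallowest of the 9 when both libraries were added, those shares were 29.3% and 25.9%. The median log2 ratio of the 9 genes was −0.04, against −0.02 for all genes. As a group the 9 genes therefore lay near the middle of all genes, with 3 ratios above 0 and 6 below.

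**Figure D1:**
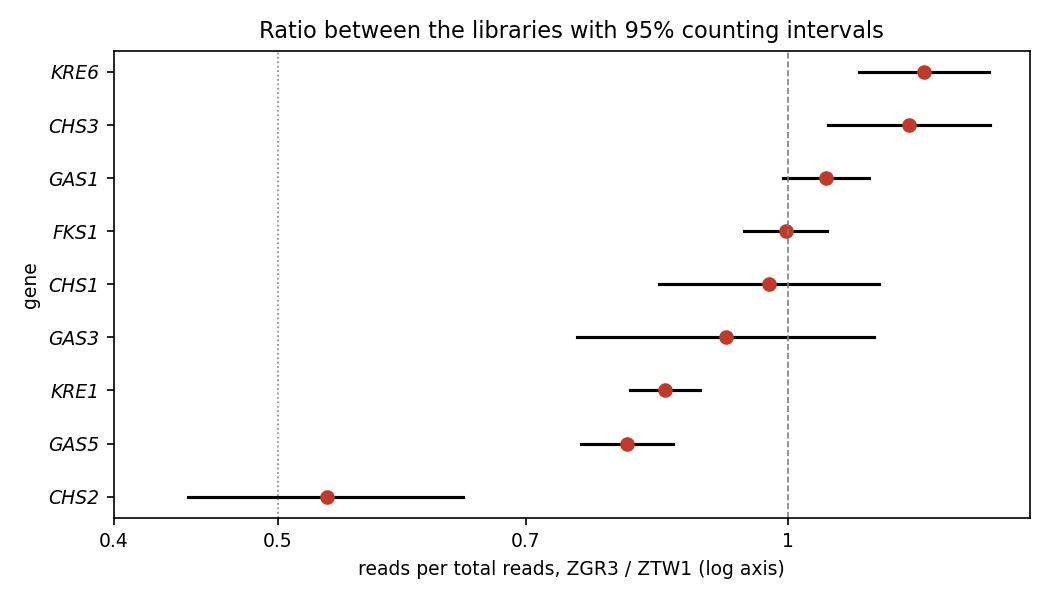
Reads per total reads in ZGR3 divided by ZTW1 for the 9 genes (horizontal log axis, points), with 95% counting intervals (lines); the dashed line marks equality and the dotted line 2-fold lower in ZGR3. CHS2 lies at 0.534 (0.443 to 0.643), apart from the other 8 genes, which lie between 0.804 and 1.20.

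FKS1, which encodes a catalytic subunit of β-1,3-glucan synthase, had 2440 reads in ZGR3 and 2474 in ZTW1. Its levels were 94.0 RPKM and 94.3 RPKM, and reads covered 99.96% and 99.73% of its coding length. The ratio was 0.997, with an interval of 0.943 to 1.05. GSC2, also named FKS2, encodes the other main catalytic subunit and is known to be used when glucose runs low. It was the more abundant of the pair, at 326 RPKM in ZGR3 and 316 RPKM in ZTW1. GSC2 exceeded FKS1 3.47-fold in ZGR3 (3.32 to 3.63) and 3.35-fold in ZTW1 (3.21 to 3.51) per coding length. FKS3, a relative known from the spore wall, made up 1.89% and 1.58% of the summed RPKM of these 3 genes. The balance among synthase genes was thus much the same in the 2 libraries. RHO1 had 368 RPKM in ZGR3 and 367 RPKM in ZTW1, and the interval of its ratio, 0.921 to 1.09, included equality.

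Of 11 partners of the β-1,3-glucan synthase, 4 had intervals above equality and 1 below, beside 17.9% and 19.8% of all genes. None of the partners was 2-fold apart. Their median log2 ratio was 0.05. SAC7 and BEM2, which encode GTPase activating proteins, lay furthest from 0. SAC7 was 1.38-fold higher in ZGR3 (1.17 to 1.64) and BEM2 1.31-fold higher (1.18 to 1.46).

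KRE1 encodes a surface glycoprotein of β-1,6-glucan assembly that also serves as the receptor of the K1 killer toxin. It was the most abundant of the 9 genes, with 3139 reads and 723 RPKM in ZGR3 and 3751 reads and 854 RPKM in ZTW1. Reads covered 99.6% and 99.7% of its length. KRE1 was 1.18-fold lower in ZGR3 (1.13 to 1.24), a log2 ratio of −0.24. It lies near the left end of chromosome XIV, with 13 measured genes outside it, and the genes around it, up to 12 on each side, had a median log2 ratio of −0.40. Relative to those neighbours KRE1 was 0.16 higher, so the direction of its difference depends on whether its place on the chromosome is allowed for. The part of position in the result was not tested.

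KRE6, which encodes a membrane protein needed for β-1,6-glucan, differed the other way. It had 1109 reads and 111 RPKM in ZGR3, against 932 reads and 92.4 RPKM in ZTW1, and was 1.20-fold higher (1.10 to 1.31). Of all 5532 genes, 929 had a higher log2 ratio than its 0.26. KRE1 exceeded KRE6 6.50-fold in ZGR3 (6.07 to 6.97) and 9.24-fold in ZTW1 (8.60 to 9.94), and these intervals did not overlap. SKN1, the paralog of KRE6, exceeded it 1.39-fold in ZGR3 (1.29 to 1.51) and 1.59-fold in ZTW1 (1.47 to 1.73).

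The 9 partners of β-1,6-glucan synthesis had a median log2 ratio of −0.13, and none was 2-fold apart. Of their intervals 1 lay above equality and 4 below, beside 17.9% and 19.8% of all genes. BIG1, whose product in the endoplasmic reticulum is needed for this glucan, was 1.34-fold lower in ZGR3 (1.08 to 1.68). CWH41, the gene of the glucosidase that begins trimming of N-linked glycans, was 1.23-fold higher (1.08 to 1.40). ROT1, the most abundant of the list, was 1.12-fold lower (1.03 to 1.22).

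**Figure D2:**
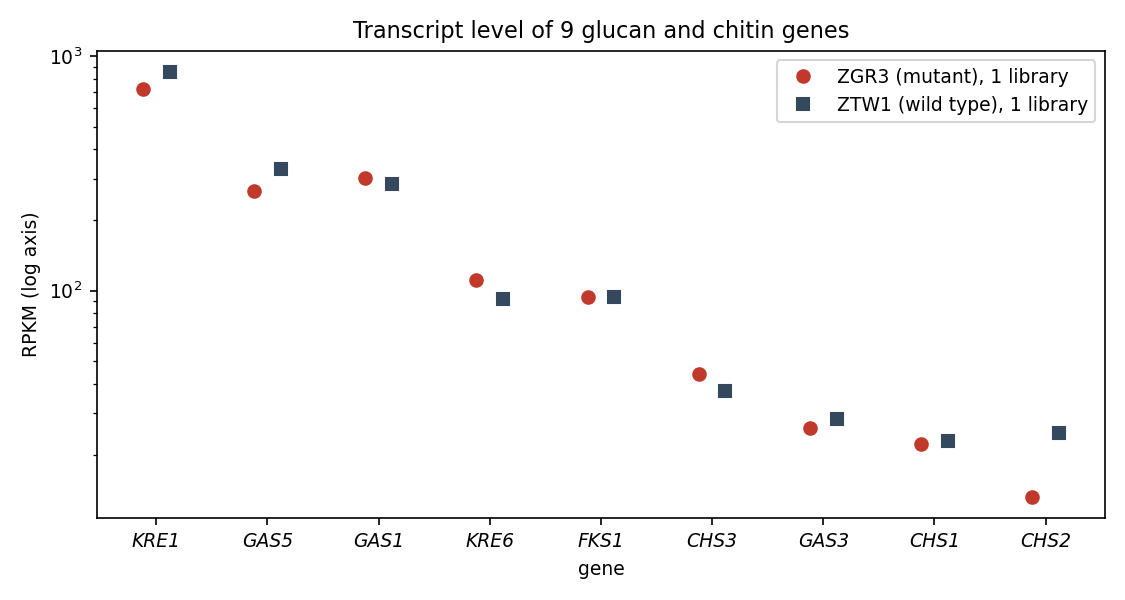
Level of each of the 9 genes in RPKM (vertical log axis) in ZGR3 (circles, left of each pair) and ZTW1 (squares, right), ordered by mean level. KRE1 is highest in both libraries, and CHS2 shows the widest gap, 13.3 RPKM in ZGR3 and 24.9 RPKM in ZTW1.

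The chitin synthase genes were less abundant, and their proportions differed between the libraries. CHS2 had 177 reads and 13.3 RPKM in ZGR3, against 335 reads and 24.9 RPKM in ZTW1. Reads covered 83.3% of its length in ZGR3 and 95.4% in ZTW1. Its log2 ratio was −0.86, and 152 of the 5532 genes had a lower ratio. In a bulk culture, fewer cells at the stage that makes a transcript and less of it per cell cannot be told apart.

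CHS3, which encodes the synthase of most wall chitin, had 711 reads and 44.1 RPKM in ZGR3, against 610 reads and 37.4 RPKM in ZTW1. It was 1.18-fold higher (1.06 to 1.32). CHS1 had 349 reads and 22.3 RPKM in ZGR3, against 362 reads and 22.9 RPKM in ZTW1. Its ratio was 0.975 and the interval of 0.839 to 1.13 included equality. CHS1 and CHS3 thus did not share the difference seen for CHS2.

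Together the 3 chitin synthase genes summed to 79.7 RPKM in ZGR3 and 85.1 RPKM in ZTW1. CHS2 made up 16.7% of that sum in ZGR3 and 29.2% in ZTW1. CHS3 made up 55.3% and 43.9%, and CHS1 28.0% and 26.9%. The ratio of CHS2 to CHS3 was 0.301 in ZGR3 (0.254 to 0.355) and 0.664 in ZTW1 (0.580 to 0.760) per coding length. The ratio of CHS2 to CHS1 was 0.596 in ZGR3 (0.494 to 0.716) and 1.09 in ZTW1 (0.934 to 1.26). For either pair the intervals of the 2 libraries did not overlap. For CHS1 against CHS3 they did, at 0.506 (0.444 to 0.576) and 0.611 (0.535 to 0.697). Overlap of separate intervals does not by itself show that this proportion was equal in the 2 libraries.

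CHS2 and CHS3 lie close together on chromosome II, with 12 measured genes between them. The genes around them had median log2 ratios of −0.23 for CHS2 and −0.24 for CHS3. Relative to these neighbours the log2 ratio was −0.63 for CHS2 and 0.47 for CHS3. The signs stayed opposite, but both sets of neighbours include those 12 genes and have nearly equal medians. Subtracting them could therefore hardly change the gap between CHS2 and CHS3. The part of position in these results was not tested.

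CHS2 transcript is known to peak in mitosis, and the labels do not give the cell cycle state of the cultures. A list of 11 genes transcribed with the cyclin gene CLB2 in mitosis was set beside it. Of these, 10 had log2 ratios below 0, as had 52.0% of all genes, and the median was −0.31. The interval lay below equality for 4 of the 11 and for 19.8% of all genes, and above it for none of the 11. Their summed level was 94.6 RPKM in ZGR3 and 122.8 RPKM in ZTW1. HOF1, for a protein of the cytokinetic ring, had only 38 reads in ZGR3 and 68 in ZTW1 and was 1.77-fold lower (1.17 to 2.71). The polo kinase gene CDC5 was 1.56-fold lower (1.23 to 1.99). CDC20, an activator of the anaphase-promoting complex, had 129 reads in ZGR3 and 154 in ZTW1 and a ratio of 0.847 (0.665 to 1.08). None of the 11 was 2-fold apart. The part of growth state in the CHS2 result was not tested.

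The 10 partners of the chitin synthases had a median log2 ratio of −0.07, which was 0.05 when a mean of 10 RPKM was required. Of their intervals 2 lay above equality and 3 below, beside 17.9% and 19.8% of all genes. None of the 10 was 2-fold apart. CHS7, whose product helps Chs3 leave the endoplasmic reticulum, was furthest from 0. It had 231 reads and 52.7 RPKM in ZGR3, against 139 reads and 31.4 RPKM in ZTW1, 1.68-fold higher (1.36 to 2.09). The genes around CHS7 on chromosome VIII had a median log2 ratio of 0.39, beside 0.73 for CHS7, and the difference was 0.34. CHS7 and CHS3 were higher in the same library, with a CHS7 to CHS3 ratio of 1.20 in ZGR3 (1.03 to 1.39) and 0.838 in ZTW1 (0.692 to 1.01). SKT5, also named CHS4, the gene of the Chs3 activator, had 158 reads in ZGR3 and 143 in ZTW1, and its ratio of 1.12 had an interval that included equality (0.885 to 1.41). BCH2, for a subunit of the exomer coat that carries Chs3 to the surface, was 1.55-fold lower (1.08 to 2.23). SHC1, a relative of SKT5 used in sporulation, had the highest level of the list and was 1.14-fold lower (1.02 to 1.27).

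The intervals of all 4 genes that make UDP-N-acetylglucosamine, the building block of chitin, excluded equality, 3 as lower and 1 as higher in ZGR3, beside 19.8% and 17.9% of all genes. Those shares rise with depth, to 25.9% and 29.3% of genes with at least as many reads as GAS3. Of the 4 genes only GNA1, with 76 reads in ZGR3 and 117 in ZTW1, had fewer reads than GAS3. GFA1, which encodes the first and limiting enzyme of that route, had 1739 reads in ZGR3 and 2060 in ZTW1 and was 1.17-fold lower (1.10 to 1.25). Its log2 ratio of −0.23 stood beside medians of −0.24 for chromosome XI and −0.30 for the genes around it. GFA1 was thus not lower than its neighbours, and the part of position was not tested. GNA1, for the acetyltransferase, was 1.52-fold lower (1.13 to 2.06). QRI1, also named UAP1, for the last enzyme, was 1.46-fold higher (1.23 to 1.75). The median log2 ratio of the 4 was −0.26, and −0.14 or −0.13 after the chromosome or neighbour median was subtracted.

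Of the Gas family, GAS1 encodes the main β-1,3-glucanosyltransferase of growing cells. It had 2331 reads and 301 RPKM in ZGR3, against 2237 reads and 286 RPKM in ZTW1. The ratio was 1.05, with an interval of 0.994 to 1.12 that included equality. GAS5, for a second transferase active in growth, had 1784 reads and 266 RPKM in ZGR3, against 2244 reads and 331 RPKM in ZTW1. GAS5 was 1.24-fold lower (1.17 to 1.32), with a log2 ratio of −0.31, and 1092 genes had a lower ratio.

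By RPKM, the order of GAS1 and GAS5 was reversed between the libraries. GAS5 stood at 0.884 of GAS1 in ZGR3 (0.830 to 0.940) and 1.16 times GAS1 in ZTW1 (1.09 to 1.23), and neither interval included equality. These intervals cover the counting of reads only. Which of the genes had more transcript in the cells was therefore not tested. GAS3, a less abundant member of the family, had 189 reads and 26.0 RPKM in ZGR3, against 208 reads and 28.3 RPKM in ZTW1. Its ratio was 0.919 (0.750 to 1.12). GAS3 was 4.39% of the summed RPKM of the 3 genes in either library.

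Ranked by RPKM, KRE1 came first in each library, and GAS1, GAS5, KRE6, FKS1, CHS3, GAS3, CHS1 and CHS2 followed in ZGR3. There, GAS3 and CHS1 were the only adjacent pair whose ratio had an interval including equality. In ZTW1 the order was KRE1, GAS5, GAS1, FKS1, KRE6, CHS3, GAS3, CHS2 and CHS1, and the pairs FKS1 and KRE6, GAS3 and CHS2, and CHS2 and CHS1 could not be ordered at this depth. Among all 5659 genes KRE1 stood at percentile 96.2 in ZGR3 and 96.6 in ZTW1. CHS2 stood at percentile 24.5 in ZGR3 and 43.0 in ZTW1, the widest shift of the 9. Together the 9 genes took 0.265% of reads in ZGR3 (0.261 to 0.270) and 0.282% in ZTW1 (0.277 to 0.287). These sums, 12229 and 13153 reads, weigh the genes with many reads most. KRE1 gave 3139 and 3751 of them and GAS5 1784 and 2244, while 3 of the 9 genes had log2 ratios above 0.

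**Figure D3:**
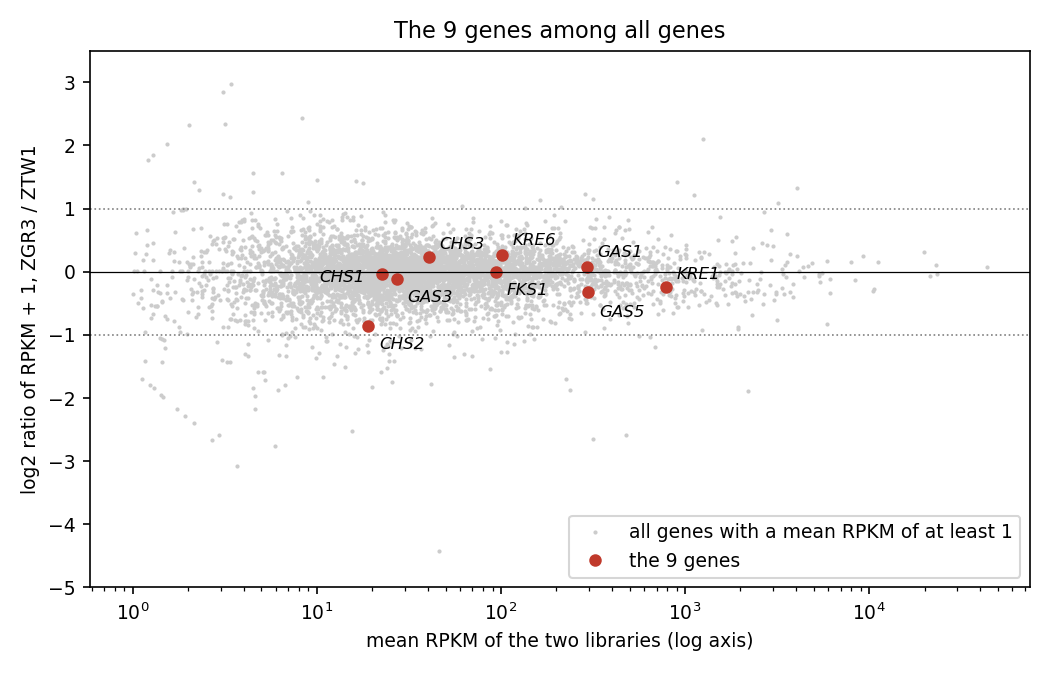
Log2 ratio of RPKM + 1 between ZGR3 and ZTW1 (vertical axis) against the mean RPKM of the libraries (horizontal log axis), for the 5532 measured genes (grey) and the 9 genes (red); dotted lines mark 2-fold. CHS2 lies at −0.86, with 152 genes below it, and the other 8 lie between −0.31 and 0.26.

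Among the other transglycosylases, CRH1, which links chitin to glucan, was 1.18-fold higher in ZGR3 (1.10 to 1.26). CRR1, a relative known from the spore wall, had 40 reads in ZGR3 and 111 in ZTW1 and was 2.74-fold lower (1.90 to 4.04), the 1 gene of this list past 2-fold. GAS2, a sporulation gene, had 1 read in ZGR3 and 2 in ZTW1 and was under the limit of 1 RPKM, so 4 of the 5 were measured. With 1 interval above equality and 1 below, beside 17.9% and 19.8% of all genes, their median log2 ratio was 0.04. That median has no stable sign, since it was −0.14 with no filter on low genes and −0.55 when a mean of 10 RPKM was required.

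Chitin is broken down at cell separation by the chitinase CTS1. CTS1 had 3300 reads and 424 RPKM in ZGR3, against 6853 reads and 871 RPKM in ZTW1, and was 2.05-fold lower (1.97 to 2.14). CTS1 exceeded CHS2 31.9-fold in ZGR3 (27.4 to 37.3) and 35.0-fold in ZTW1 (31.4 to 39.2). These intervals overlapped, which does not by itself show that the proportion was equal in the libraries. The deacetylase genes CDA1 and CDA2, of the spore wall, had 4 and 1 reads in ZGR3 and 11 and 3 in ZTW1. Of the 4 genes of chitin turnover, 3 were measured, and the interval excluded equality for CTS1 alone. Among all genes, 19.8% had intervals below equality. The median log2 ratio of the 3 measured turnover genes, −0.88, was the value of CDA1, which rests on few reads. It was −0.35 with a pseudocount of 5 RPKM.

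The 10 glucanase genes had a median log2 ratio of −0.30. Intervals lay above equality for 2 and below it for 5, beside 17.9% and 19.8% of all genes. SCW11 was 2.45-fold lower in ZGR3 (2.20 to 2.73), the 1 gene past 2-fold. DSE4, a glucanase of the daughter side of the septum, was 1.62-fold lower (1.40 to 1.88), while the genes around it had a median log2 ratio of 0.37. BGL2, the most abundant, was 1.25-fold lower (1.21 to 1.28).

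The wall integrity pathway, in which surface sensors act through Rho1 and protein kinase C on the MAP kinase Slt2, had no gene 2-fold apart among 15. The intervals of 4 lay above equality and of 2 below, beside 17.9% and 19.8% of all genes. The median log2 ratio of the 15 was 0.09. SLT2 had 281 reads in ZGR3 and 305 in ZTW1, a ratio of 0.932 (0.789 to 1.10). WSC4, a gene of the WSC family, was 1.40-fold lower (1.21 to 1.62) and the kinase gene MKK1 1.34-fold higher (1.04 to 1.73). ZEO1, the most abundant, had a ratio of 1.06 (0.974 to 1.16).

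**Figure D4:**
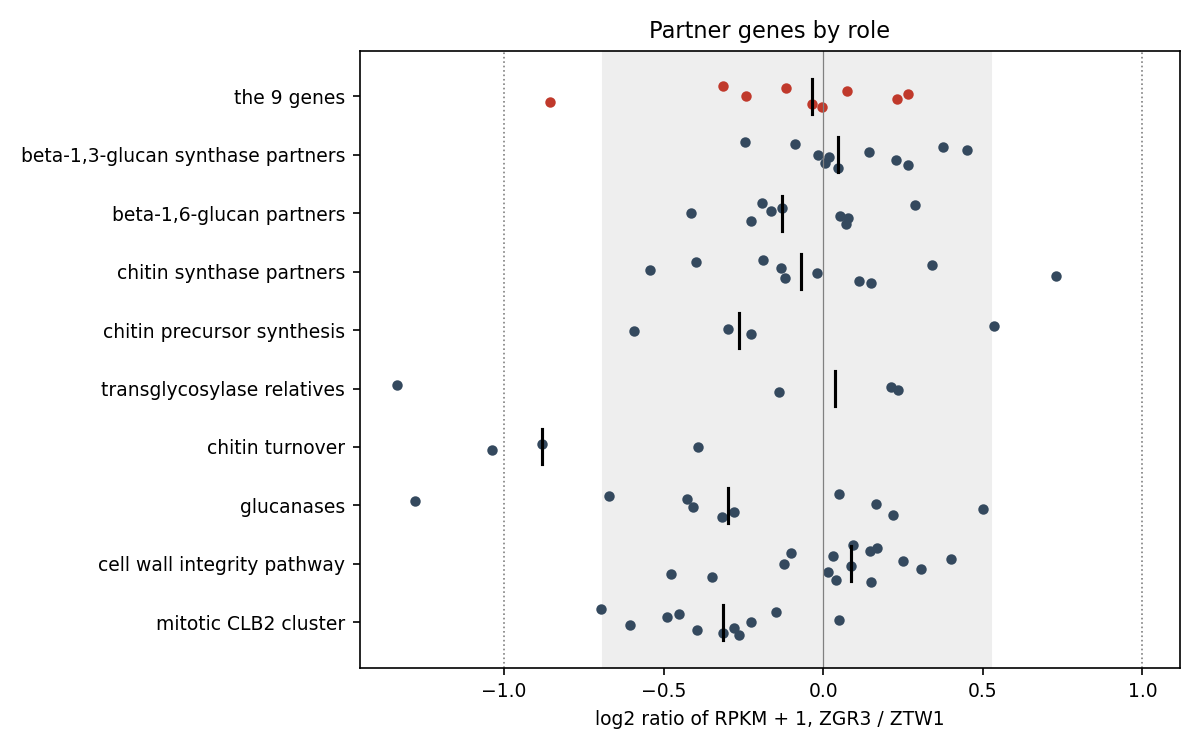
Log2 ratio of RPKM + 1, ZGR3 over ZTW1 (horizontal axis), for each measured gene of the 9 and of 9 partner lists (rows); bars mark medians, dotted lines 2-fold, and the shaded band the 5th to 95th percentile of all 5532 genes, −0.69 to 0.53. Most genes lie within the band, and CHS2 is the 1 member of the 9 outside it, at −0.86.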

How the data were processed

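Each deposited table lists the count of reads placed uniquely on each gene, per the file headers, and these counts add up to the stated total. The authors' RPKM was given back by the reads, length and total. The coverage column is the authors' percent of a gene's length covered by reads, per the file headers. Per the submitters' processing notes, the build was sacCer2. The sources used here do not name the aligner, filters or strand handling. All listed lengths are multiples of 3 and are called coding length. Genes absent from a library's table were set to 0 reads.

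The log2 ratio was log2((RPKM ZGR3 + 1)/(RPKM ZTW1 + 1)), which understates differences of low genes, and was summarised over genes averaging 1 RPKM or more. Gene IDs were matched to RefSeq assembly R64 (5653 matched, 6 did not) for names, chromosomes and gene order only, since the builds differ; no sequences or coordinates are shown. None of the 9 genes overlaps another gene of that annotation. Reads shared with paralogs such as GSC2 for FKS1 or SKN1 for KRE6 were not tested.

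Named from each of the 9 lists were genes past 2-fold, the 2 furthest from 0 and the most abundant, with GSC2, SKT5, GFA1, CTS1, RHO1 and SLT2 always; FKS3, SKN1, CDA2 and GAS2 were added after their values were seen. The 9 genes and the lists were chosen with earlier results of these data known. A result on 1 other gene group is not given here. The steps were tested on simulated data. Intervals came from scipy 1.17.1, with pandas 2.3.3, numpy 2.4.6 and matplotlib 3.10.9 under Python 3.11.15.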

Additional observations from a re-analysis of the deposited data

How the results depend on the processing

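The results were recomputed with pseudocounts of 0.1 and 5 RPKM, median centring, trimmed mean of M values scaling, no filter or a minimum mean RPKM of 10, and after subtracting the chromosome median, the median of neighbouring genes or a running median over coding length. Subtracting the median of neighbours gave log2 ratios of 0.16 for KRE1, a change of sign, 0.47 for CHS3 and −0.22 for GAS5. The running median over coding length gave −0.095 for FKS1 and −0.16 for KRE1. Over 10 classes of coding length, the median log2 ratio was 0.09 in the longest and −0.16 in the shortest genes. The cause of these shifts was not tested. A 1.5-fold rule counted 1 of the 9 genes, CHS2, in place of 0. The other 179 recomputed values, list medians with wide intervals among them, moved by less than the half-width of the counting interval (for list medians, the median half-width of the list's genes) or, for counts, by no more than 1.5 times. Medians near 0 were not stable in sign or size. That of the 9 genes was −0.13 over coding length and 0.01 after the chromosome median. The β-1,3-glucan synthase partners reached 0.21 against neighbours, and over coding length the β-1,6-glucan partners stood at −0.05 and the wall integrity genes at 0.05. The medians of the transglycosylase, chitin synthase partner, precursor and turnover lists also changed sign or moved by over 1.5 times, as given with each list. Trimmed mean of M values scaling raised the intervals above equality from 2 to 3 of the 9 genes by adding GAS1. CHS2 ranged from −0.94 to −0.63. CHS3 ranged from 0.14, after the running median over coding length, to 0.47 against neighbours, beside a main value of 0.23. Counting error limits CHS2 and GAS3 most, and no setting replaces a second library per strain. No paired analysis was possible because each strain had 1 library.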
